A study of Homo sapiens with 12 samples.

Results

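Late-numbered miRNAs are mature miRNAs whose names carry a first number of 3000 or more. They were taken from a read count table of 12 small RNA libraries. Of 1286 mature names in that table, 721 had such a number and 104 of these had 120 or more reads summed over the 12 libraries. Names with any of 15 first numbers were set aside, which removed 18 of the 104, with 14 of these numbers, since neither arm of miR-4743 reached 120 reads. The other 86 are described here. The members were thus chosen by their name and by their reads summed over the same 12 libraries that the comparisons use, and the 15 numbers were set aside with earlier results of these data known. The share of members that responded is therefore a description of the chosen members, and counts with the 18 names put back are given beside it where they were fitted.

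All libraries were made from a DROSHA knockout of HCT116, an established line of human colorectal carcinoma. All cells received 4.5 µg of the plasmid pXC-NLS-DG4 together with a pCK plasmid. The pCK plasmid was empty in the control group, and in the other 3 groups it coded, at 4.5 µg, for wild-type DROSHA, for the DROSHA mutant m4 or for a DROSHA mutant with the belt deleted. Each group has 3 libraries; the labels state neither what is altered in m4 nor what the DG4 plasmid codes for. Whether the knockout line is a single clone, and whether the numbered repeats are separate cultures, is not given in the sources used here, so p-values measure the spread between these samples, which may be technical.

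DROSHA is the nuclear RNase III enzyme that cuts the hairpin out of most primary miRNA transcripts. Mirtrons are hairpins whose ends are set by the splicing of a short intron, so they can mature without that cut; in tailed mirtrons only one end of the hairpin coincides with a splice site. miRNAs are numbered in the order in which they were registered, and most late numbers came from deep sequencing. The comparisons ask which of these late entries gain reads when DROSHA is returned to cells that lack it.

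The sequences below belong to members on which the results turn, the abundant ones first and then those with a call in some comparison. They are RefSeq mature sequences (GRCh38.p14), written 5′ to 3′, with the seed (bases 2 to 8, the part that pairs with targets) in capitals.
miR-3928-3p: gGAGGAACcuuggagcuucggc
miR-3662: gAAAAUGAugaguagugacugaug
miR-4741: cGGGCUGUccggaggggucggcu
miR-6511a-5p: cAGGCAGAaguggggcugacagg
miR-6511b-5p: cUGCAGGCagaaguggggcugaca
miR-3929: gAGGCUGAugugaguagaccacu
miR-4435: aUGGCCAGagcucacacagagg
miR-3605-5p: uGAGGAUGgauagcaaggaagcc
miR-3614-5p: cCACUUGGaucugaaggcugccc
miR-6505-5p: uUGGAAUAggggauaucucagc
miR-6797-5p: aGGAGGGAaggggcugagaacagga
miR-6882-5p: uACAAGUCaggagcugaagcag
miR-6761-5p: uCUGAGAGagcucgauggcag
miR-6859-5p: gAGAGGAAcaugggcucaggaca

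Sequences were found for 70 of the 86 members, and the 70 carried 70 different seeds, so no 2 of them share a seed family. miR-6511a-5p and miR-6511b-5p are near-identical copies that share a run of 21 bases on the same strand, shifted against each other, and how the counting divided their reads is uncertain. miR-3190-3p and miR-3191-5p are an antisense pair on chromosome 19, at chr19:47226942-47227021 (+) and chr19:47226944-47227019 (-).
miR-3190-3p: uGUGGAAGguagacggccagaga
miR-3191-5p: cUCUCUGGccgucuaccuucca
A run of 21 bases of one is the reverse complement of the other. They had 479 and 469 reads in all, and in 7 of the 12 libraries the reads were equal. Since the use of strand is not stated, the reads of this pair cannot be told apart, and the pair may count as 1 feature.

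Many of the hairpins lay against a splice site. Positions on hg38 were found for 84 of the 86 members, 80 in GENCODE v29 and 4 in RefSeq. Of these 84, 48 (57.1%) had a hairpin end within 5 bases of an intron end on the same strand, 43 at the 3′ end of the intron, 3 at the 5′ end and 2 at both ends. For 44 of the 48 the hairpin ended exactly at the intron end. Of the other 36, 20 overlapped an exon of a gene on the same strand, 5 lay elsewhere in introns and 11 had no gene on their strand. Some of the 20 ran past an intron's 3′ end by more than 5 bases. Among them were the hairpins of miR-3605 (12 bases), miR-5010 (19), miR-6716 (8) and miR-6721 (9). Among the 138 names numbered below 3000 with 120 or more reads, leaving out the scaling reference, 4 (2.90%) lay at an intron end by the same rule. Introns at which members lay were 54 to 7637 bases long (median 193.5), and 12 were under 100 bases.

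The members numbered from 6000 and under 7000 carry most of this pattern, since 39 of the 44 lay at an intron end. miR-3620-5p spanned a whole 79-base intron of ARF1, a small GTPase gene, at chr1:228097263-228097341 (+). miR-6807-5p spanned a whole 92-base intron of TRIM28, a transcriptional corepressor gene, at chr19:58550285-58550376 (+). The sequences show the splice sites themselves. Of 10 members of the 3p arm at intron ends with sequence and position, 8 ended on the last base of the intron, and their last 2 bases, in capitals here, are the AG of the splice acceptor.
miR-6510-3p: caccgacucugucuccugcAG
miR-6770-3p: cuggcggcugugucuucacAG
miR-6777-3p: uccacucuccuggcccccAG
miR-6806-3p: ugaagcucugacauuccugcAG
miR-6808-3p: gugugaccaccguuccugcAG
miR-6853-3p: uguucauuggaacccugcgcAG
miR-6868-3p: uuccuucuguugucugugcAG
miR-6874-3p: caguucugcuguucugacucuAG
Their host genes, in the order shown, are KRT15, AC138932.1, SREBF1, ZSCAN22, DVL1, CREB3, EXOC7 and RNF216. By position miR-3605-3p and miR-5010-3p also end on the last base of an intron, but the 5-base rule counts their hairpins as exonic. miR-6807-5p starts on the first base of its intron, and the capitals mark the GU of the splice donor.
miR-6807-5p: GUgagccaguggaauggagagg
Among all members of the 3p arm with a sequence, 11 of 26 (42.3%) ended in AG, against 3 of 53 (5.66%) of the names below 3000. Among members of the 5p arm, 2 of 44 started with GU, against 1 of 72.

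The members also differed in makeup from the names below 3000. Their median GC content was 59.1% (37.5% to 91.3%), against 47.6%. Their hairpins had a median length of 68 bases, against 85, and a median folding energy of -0.42 kcal/mol per base, against -0.46. The mature length was 22 bases in both by median. Of the 86 members, 53 are on the 5p and 33 on the 3p arm. These are descriptions of 2 lists and no test was made.

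Depth was low for single members. Table totals were 132667 to 407461 reads per library, and the members had 121 to 4133 reads each over the 12 libraries (median 304). Their 44111 reads in all compare with 276349 for the 18 names set aside. Every member had a read in every library, except miR-3143, which was at 0 in m4 replicate 2. Values below are scaled reads, that is counts divided by a size factor taken from miRNAs known to mature without DROSHA (miR-484, the miR-320 family, summed, and the mirtrons miR-877, miR-1224 and miR-1226). That this reference was constant across the groups is an assumption, which was not tested against an outside standard, so every scaled value and fold change is relative to it. Within the miR-320 sum, miR-320d was itself called higher with m4 (2.15, SE 0.66, edgeR adjusted p = 0.0242) and with the belt deletion (2.39, SE 0.67, edgeR adjusted p = 0.0133), while miR-320a-3p had log2 changes of -0.45 and -0.23 without a call. Library preparation and sequencing bias differ between sequences, so levels of different miRNAs are not set against each other. In bulk libraries fewer cells with a miRNA and less of it per cell cannot be told apart.

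Summed over the 86 members, scaled reads were 3693, 2982 and 3477 in the empty-plasmid libraries. With wild-type DROSHA they were 3346, 3029 and 2634. With m4 they were 3134, 4296 and 4856, and with the belt deletion 3706, 4516 and 3125. The 4 groups overlapped. The 138 names below 3000 gave 6769 to 8644 scaled reads with empty plasmid and 107720 to 201042 with wild type. They gave 18594 to 30774 with m4 and 130154 to 161577 with the belt deletion, and each of these ranges lay above that of the empty plasmid. Among all reads, each merged pair of names counted once, the members made up 1.90% to 2.12% with empty plasmid and 0.966% to 1.08% with wild type. That share moves with the total of the other miRNAs.

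**Figure D1:**
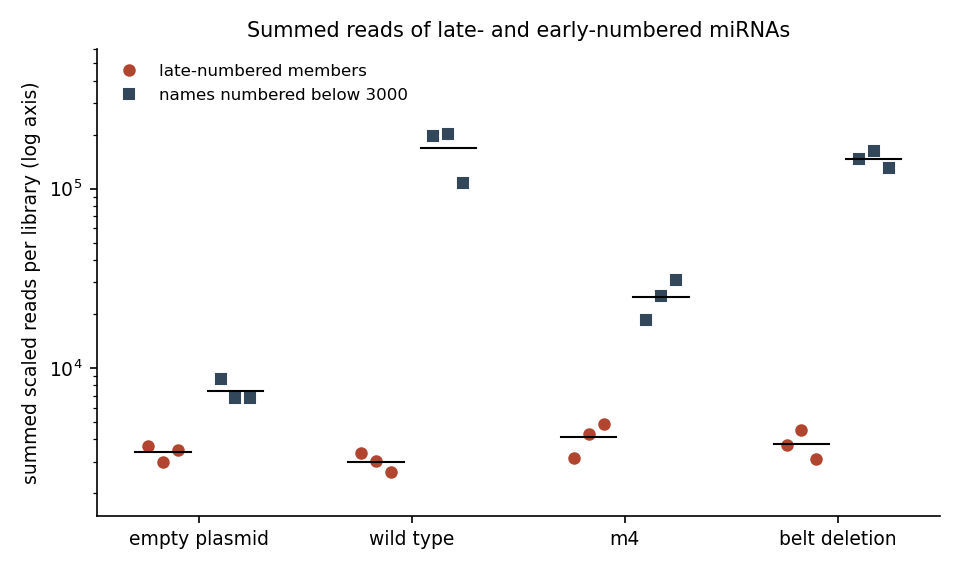
Summed scaled reads of the 86 late-numbered members (circles) and of the 138 names numbered below 3000 (squares) in each of the 12 libraries, on a log axis; bars are group means (n = 3). The members' sums stay between 2634 and 4856 in all 4 groups, while the sums of the names below 3000 run from 6769 to 201042.

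With wild-type DROSHA against empty plasmid, 0 of the 86 members were called higher (edgeR, adjusted p under 0.05), where 42.6% of all 310 miRNAs tested were. Without adjustment, 0 had a p under 0.05, and DESeq2 called 0 with its own size factors and 0 with the reference size factors. Of the 138 names below 3000, 108 (78.3%) were called higher. A single member, miR-3614-5p, was called lower (1.16% of the members), where 0.645% of all tested were, and 4 members were lower at an unadjusted p under 0.05. The median log2 fold change was -0.17 over the members, 4.02 over the names below 3000 and 0.72 over all 310.

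How large a rise could have been missed is given by the intervals. The standard error of a member's log2 fold change was 0.42 by median (0.32 to 0.66). The upper end of the 95% interval lay below 1, a 2-fold rise, for 63 of the 86 members and below 2 for 85. The highest upper end was 2.27 (4.82-fold), for miR-3143. Of the 138 names below 3000, 101 had a fold change above that bound, and 114 had one above the highest member value of 0.92. For members with wide intervals a 2-fold rise was not detectable at this depth.

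With m4 against empty plasmid, 3 members (3.49%) were called higher, where 41% of all 310 were, and 2 (2.33%) were called lower, where 0.968% were. In the names below 3000, 104 of 138 (75.4%) were called higher. The members' median log2 fold change was 0.30, against 1.84 for the names below 3000 and 0.83 for all. The upper interval ends reached 2.38 (miR-6882-5p), and 39 of the 138 names below 3000 lay above that. With the belt deletion against empty plasmid, 1 member (1.16%) was called higher, where 42.9% of all 310 were, and 1 was called lower, where 0.323% were. The median was 0.07 over the members, 3.28 over the names below 3000 and 0.73 over all. Here 108 of the 138 names below 3000 were called higher, and 95 lay above the members' highest upper interval end of 2.08. These 3 comparisons share the empty-plasmid libraries.

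**Figure D2:**
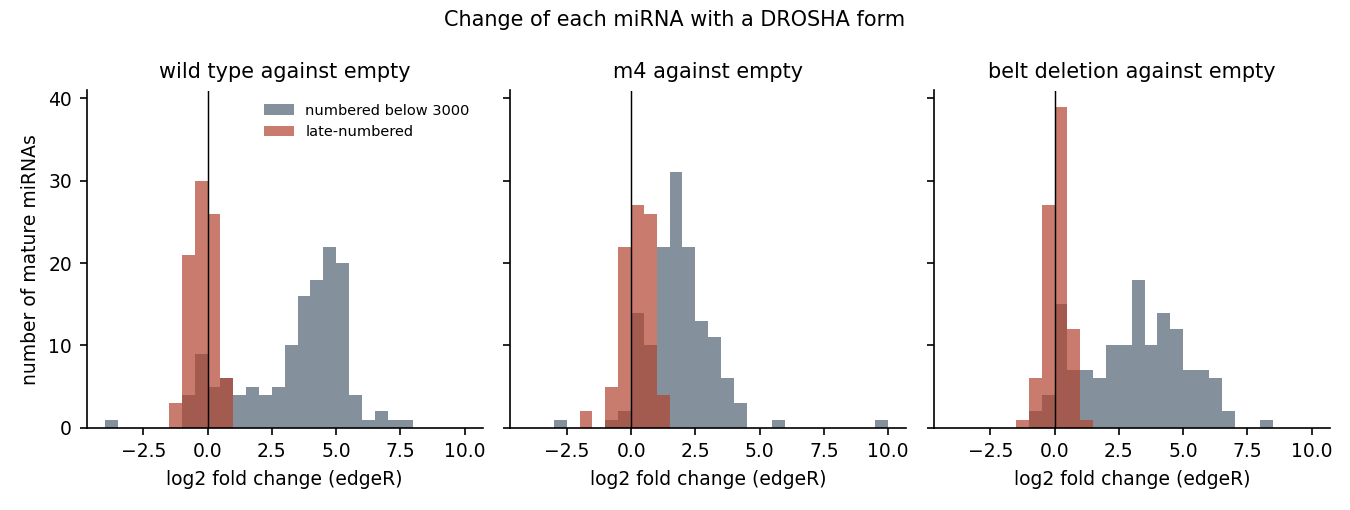
Number of mature miRNAs in bins of 0.5 of the log2 fold change against empty plasmid, for the 86 late-numbered members and the 138 names numbered below 3000, 1 panel for each DROSHA form. The members centre on -0.17, 0.30 and 0.07, and the names below 3000 on 4.02, 1.84 and 3.28.

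Between m4 and wild type the members' median and that of the names below 3000 had opposite signs. With m4 against wild type, 4 members (4.65%) were called higher, where 3.55% of all 310 were. None, 0 of 86, was called lower, where 34.2% of all 310 were, and 1 was lower at an unadjusted p under 0.05; both DESeq2 fits also gave 0. Of the names below 3000, 90 were called lower and 1 higher. The median was 0.39 over the members, -1.66 over the names below 3000 and -0.19 over all. With the belt deletion against wild type, 0 members were called higher, where 3.23% of all were, and 0 lower, where 9.35% were. At an unadjusted p under 0.05 these counts were 10 and 3, and DESeq2 gave 1 higher with its own size factors and 0 with the reference size factors, and 0 lower with either. The members' median was 0.32, the names below 3000 had -0.30, and all 310 had 0.04.

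The counts of calls rest on the scaling. TMM factors, taken over all tested miRNAs, moved the median of all 310 from 0.72 to -0.07 for wild type against empty, and the members' median from -0.17 to -0.94. Under TMM 0 members were called higher and 54 (62.8%) lower with wild type, where 40.3% and 28.4% of all 310 were. With m4 the counts were 0 and 4 (4.65%), where 31.6% and 3.87% of all were. With the belt deletion they were 0 and 27 (31.4%), where 36.8% and 15.2% of all were. For m4 against wild type they were 32 higher (37.2%) and 0 lower, where 17.4% and 29.7% of all were.

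**Figure D3:**
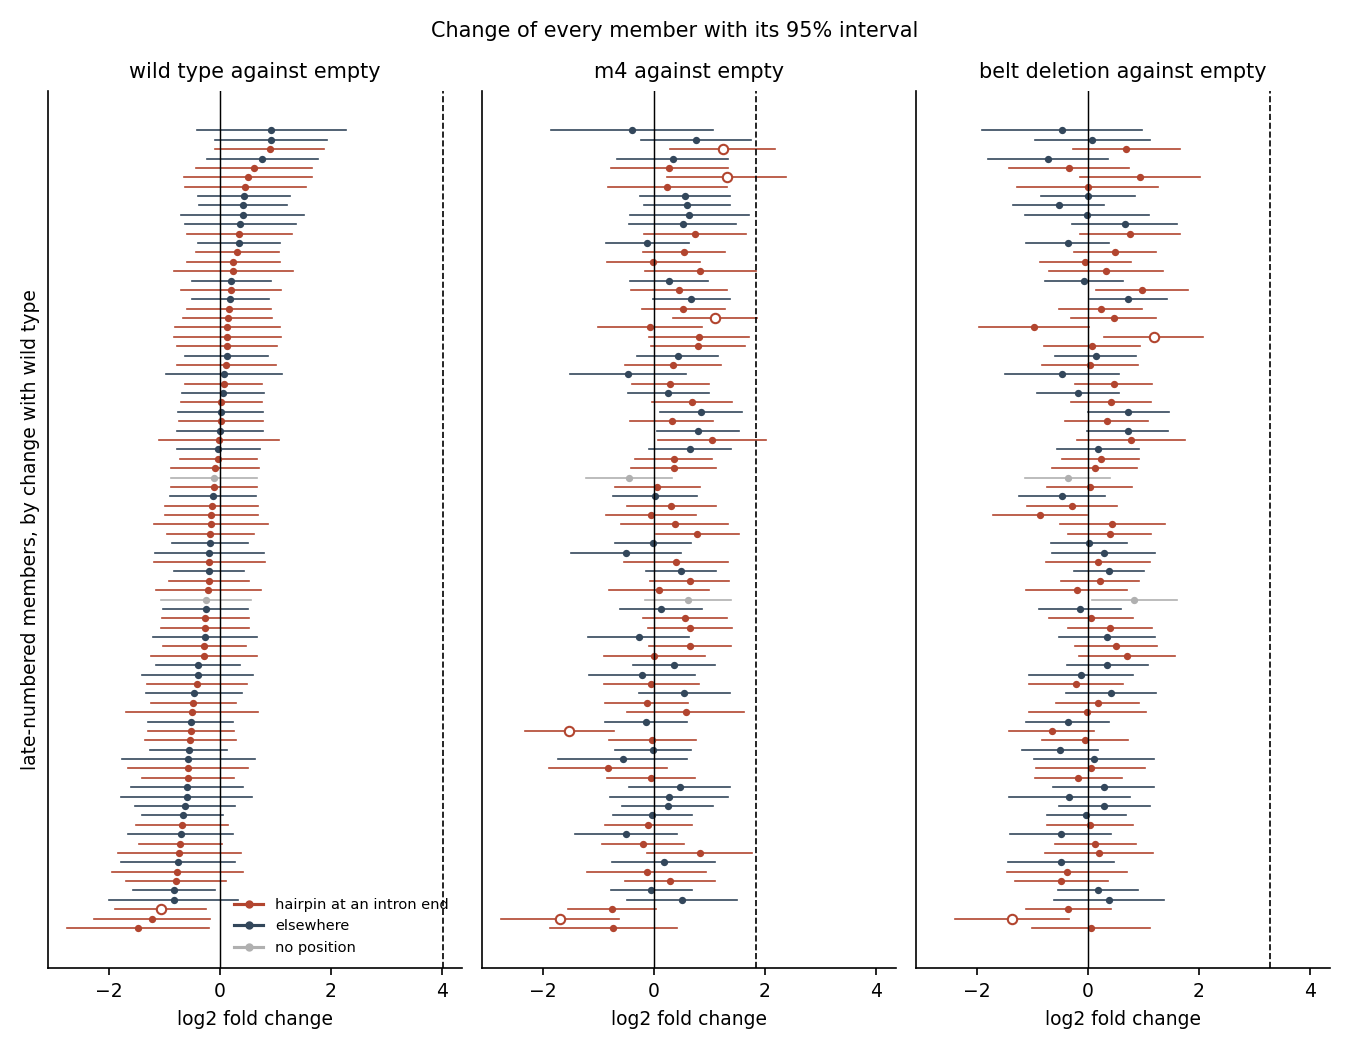
Log2 fold change (point) and 95% interval (line) of each of the 86 members against empty plasmid, in the order of the change with wild type; red members lie at an intron end, open points are edgeR calls, and the dashed line is the median of the 138 names below 3000 (4.02, 1.84 and 3.28). No wild type interval reaches past 2.27 and no belt deletion interval past 2.08, short of the dashed lines, while some m4 intervals cross theirs.

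All 10 members with a call in any of the 5 comparisons lay at an intron end by the 5-base rule, where 48 of the 86 lie. Among the 10 is miR-3614-5p, whose hairpin holds a whole short intron and runs on into the exon. Members elsewhere include hairpins that run past an intron end by more than 5 bases, such as those of miR-3605 and miR-5010. With wild type the median change was -0.16 for the 48 members at intron ends and -0.19 for the 36 elsewhere. With m4 the medians were 0.33 and 0.26, and with the belt deletion 0.13 and 0.01. For m4 against wild type they were 0.46 and 0.27. The 12 members at introns under 100 bases had medians of -0.35, 0.09 and 0.03 against empty plasmid. Those of the 8 members shown above that end on the AG of the acceptor were -0.17, 0.35 and 0.01. With wild type 0 members of either kind were called higher.

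The older names at intron ends gave no calls. The 4 names below 3000 at intron ends are miR-1292-5p in NOP56, miR-1976 in RPS6KA1, miR-937-3p in SCRIB and miR-939-5p in CPSF1, none of them in the scaling reference. In each of the 5 comparisons 0 of the 4 were called. Their log2 changes with wild type ran from -0.51 to 0.22, while the 134 names below 3000 elsewhere had a median of 4.09, with 108 called higher. With 4 names this is a description.

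By number, the median with wild type was -0.20 over the 13 members numbered under 4000 and -0.34 over the 18 numbered from 4000 and under 5000. It was -0.12 over the 44 numbered from 6000 and under 7000 and -0.18 over the 8 numbered from 7000. The 3 numbered from 5000 and under 6000 had a median of the opposite sign, 0.37 (-0.29 to 0.42), with no call. By arm it was -0.15 for 5p and -0.19 for 3p. A list by number of names that overlap rRNA or other structured RNA was kept apart, and 2 members, miR-4485-3p and miR-6724-5p, are on it. Their log2 changes with wild type were 0.34 and 0.07, and neither was called in any comparison. The list is not complete, since the hairpin of miR-6516-5p, not on it, overlaps the small RNA gene SCARNA16.

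The most abundant member was miR-3928-3p, whose hairpin lies at chr22:31160062-31160119 (-) with no annotated gene on its strand. It had 371, 225 and 289 scaled reads with empty plasmid and 273.5, 257 and 239 with wild type. With m4 it had 308, 431 and 502, and with the belt deletion 385, 505 and 265. The wild type values lay within the range of the empty plasmid, and the m4 values lay above all 3 wild type values without a call (log2 fold change 0.69, SE 0.32, edgeR adjusted p = 0.0809).

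miR-3662 lies in an intron of HBS1L, a gene for a translational GTPase, 69 bases before the intron's end, at chr6:134979338-134979432 (-). Its scaled reads were 135, 147 and 122 with empty plasmid and 172, 178 and 109 with wild type, which overlap. With the belt deletion it had 193, 277 and 201, all above the empty plasmid, and no call was made (0.73, SE 0.35, edgeR adjusted p = 0.0872). miR-4741 overlaps an exon of RBBP8, a gene for a DNA end resection factor, at chr18:22933349-22933438 (+). It had 216, 129 and 179 scaled reads with empty plasmid and 203, 129.5 and 128 with wild type. Its 4 groups overlapped in every comparison, and its changes against empty plasmid were -0.18, -0.02 and 0.02 on the log2 scale.

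The copies miR-6511a-5p and miR-6511b-5p lie at the 3′ ends of 127-base introns on chromosome 16, at chr16:18344013-18344079 (-) and chr16:15134075-15134145 (-). These positions are of the copy with the most reads. miR-6511a-5p had 134, 125 and 128 scaled reads with empty plasmid and 133, 148 and 98 with wild type. miR-6511b-5p had 114, 113 and 123 with empty plasmid and 150, 124 and 93.5 with wild type. In both the wild type values lie on either side of the empty-plasmid values, and neither was called in any comparison.

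Of the abundant members not at an intron end by the 5-base rule, 3 had lower values with wild type than in every empty-plasmid library, none with a call. The same held for miR-6842-3p, which lies at an intron end and is given below. How many of all 310 tested miRNAs did so was not counted. miR-3929 (chr18:35934088-35934142 (-), no gene on its strand) had 168, 136 and 171 scaled reads with empty plasmid and 120, 98.9 and 101 with wild type. Its change was -0.56 (SE 0.35, edgeR adjusted p = 0.207). miR-4435 overlaps an exon of CYTOR, a long noncoding RNA gene, at chr2:87629755-87629834 (+), and had 150, 93.9 and 97.6 with empty plasmid and 85.6, 37.8 and 67.6 with wild type. Its change was -0.83 (SE 0.37, edgeR adjusted p = 0.0657). miR-3605-5p overlaps an exon of PHC2, a polycomb group gene, at chr1:33332393-33332492 (-). Its hairpin runs 12 bases past the end of a PHC2 intron, which is more than the 5-base limit. It had 108, 111 and 128 with empty plasmid and 73.7, 79.1 and 64.2 with wild type. Its change was -0.68 (SE 0.37, edgeR adjusted p = 0.140).

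The other 2 of the 10 most abundant members lie at the 3′ ends of introns. miR-6842-3p in PTK2B, a tyrosine kinase gene, had 84.2, 86.9 and 87.0 scaled reads with empty plasmid and 70.2, 68.4 and 73.2 with wild type. With m4 it had 54.7, 181 and 168, so that the m4 libraries lie on both sides of the wild type. It was called higher with m4 than with wild type (0.93, SE 0.38, edgeR adjusted p = 0.0464), although m4 replicate 1 was below all wild type libraries. miR-6847-5p in EXOSC4, an RNA exosome subunit gene, had 66.9, 64.0 and 63.7 with empty plasmid and 65.4, 84.5 and 48.5 with wild type, and was called in no comparison.

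**Figure D4:**
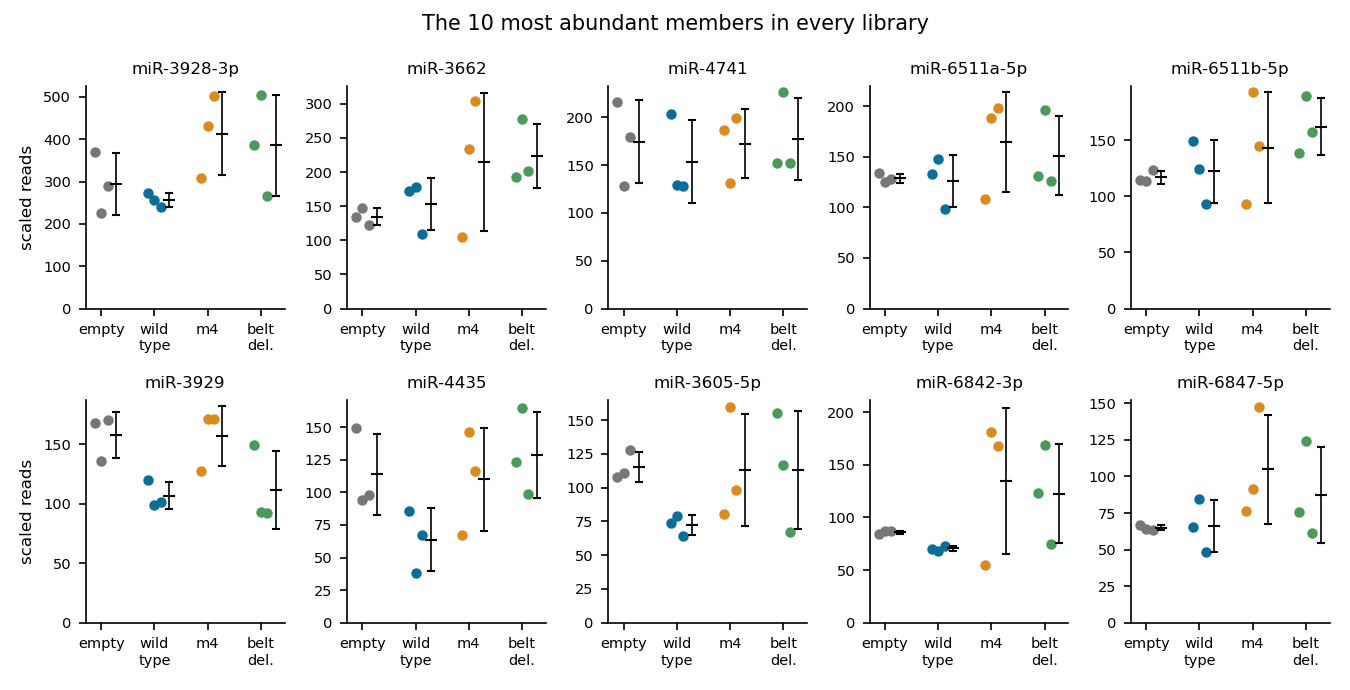
Scaled reads (linear axes from 0) of the 10 members with the highest mean over the 12 libraries; points are libraries and bars the group mean ± SD (n = 3). Wild type overlaps or lies under the empty plasmid in all 10, and miR-3928-3p has the highest values, up to 505.

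For 2 hairpins both arms were members. For miR-3605 the change with wild type was -0.68 on the 5p and -0.53 on the 3p arm, with no call. For miR-4709, in NPC2, a cholesterol transport gene, the 3p and 5p arms had -0.64 and -0.19. With m4 these arms had 0.24 (SE 0.42) and -0.50 (SE 0.50), a gap that their errors span. The names miR-6511a-5p and miR-6511a-3p are both members too, but the lines used come from different copies of the hairpin, on opposite strands of chromosome 16. They had -0.03 (SE 0.35) and 0.61 (SE 0.53) with wild type.

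The single member called with wild type fell. miR-3614-5p comes from a hairpin in TRIM25, a ubiquitin ligase gene of antiviral signalling, at chr17:56891270-56891355 (-), and GENCODE gives a 54-base intron that starts 1 base inside the hairpin and ends 31 bases before its other end. It had 70.7, 23.6 and 32.5 scaled reads with empty plasmid and 26.2, 12.6 and 20.3 with wild type, and the groups overlapped. The log2 fold change was -1.07 (SE 0.41, edgeR adjusted p = 0.0266). Without empty replicate 1, the highest library, it was -0.48 with an edgeR adjusted p of 0.507, and the call also ended without wild type replicate 2 (0.169) or 3 (0.0739). The count of members called lower with wild type was 4 without wild type replicate 1, 3 without m4 replicate 3, and 2 without empty replicate 2 or m4 replicate 1 or 2. Without empty replicate 1, miR-3143 was instead called higher with wild type (1.83, edgeR adjusted p = 0.016). That was the only rise called among members when libraries were left out in turn. miR-3143 had 20.3, 4.87 and 5.98 scaled reads with empty plasmid and 21.4, 12.6 and 23.7 with wild type.

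With m4, 3 members of the 5p arm at the 3′ ends of introns were called higher than with empty plasmid. miR-6505-5p lies in PFKM, the muscle phosphofructokinase gene, at chr12:48132797-48132867 (+). It had 17.3, 25.7 and 25.9 scaled reads with empty plasmid, 33.3, 23.4 and 19.2 with wild type, and 30.0, 59.1 and 58.9 with m4. The m4 values lay above all empty-plasmid values (1.10, SE 0.38, edgeR adjusted p = 0.0148), and it was also called against wild type (0.96, SE 0.40, edgeR adjusted p = 0.0481), where the groups overlapped.

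miR-6797-5p lies in RPS19, a ribosomal protein gene, at chr19:41869627-41869698 (+). It had 9.78, 6.95 and 9.30 scaled reads with empty plasmid and 16.1, 19.4 and 26.9 with m4, without overlap (1.24, SE 0.48, edgeR adjusted p = 0.0281). With wild type it had 19.0, 10.8 and 18.0, also above the empty plasmid but not called (0.90, SE 0.49, edgeR adjusted p = 0.148). miR-6882-5p lies in ULK3, a protein kinase gene, at chr15:74840642-74840707 (-). It had 8.27, 6.26 and 5.98 with empty plasmid and 12.9, 15.7 and 23.0 with m4, without overlap (1.31, SE 0.54, edgeR adjusted p = 0.0425). In wild type its 3 libraries ran from 1.80 to 19.0, on both sides of the empty plasmid. With the belt deletion it had 17.6, 12.5 and 9.39, also above the empty plasmid but not called. When each of the 12 libraries was left out in turn, 9 fits kept the call of miR-6505-5p against empty plasmid. For miR-6797-5p 8 fits kept it, and for miR-6882-5p 6. All 3 calls ended under TMM, with DESeq2's size factors and without the low-count filter.

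With m4, 2 members of the 3p arm at the 3′ ends of introns fell. miR-6747-3p in EEF1G, a translation elongation factor gene, at chr11:62567011-62567071 (-), had 58.7, 28.5 and 63.1 scaled reads with empty plasmid and 14, 26.8 and 10.2 with m4. The groups did not overlap (-1.53, SE 0.41, edgeR adjusted p = 0.00126), and the call held without each of the 12 libraries in turn. With wild type it had 51.1, 32.4 and 20.3 and no call (-0.53, SE 0.39, edgeR adjusted p = 0.297). miR-6808-3p lies at the 3′ end of an 86-base intron of DVL1, a Wnt signalling gene, at chr1:1339650-1339708 (-). It had 27.8, 11.8 and 41.8 with empty plasmid, 22.6, 5.40 and 5.63 with wild type, 2.15, 9.24 and 14.1 with m4 and 10.6, 12.5 and 8.53 with the belt deletion. It fell with m4 (-1.69, SE 0.53, edgeR adjusted p = 0.00775) and with the belt deletion (-1.37, SE 0.51, edgeR adjusted p = 0.0227). Empty replicate 2 overlapped both groups, and without empty replicate 3 both calls ended (edgeR adjusted p of 0.114 and 0.266). The m4 call also ended without m4 replicate 1 (0.0792), and the belt deletion call without belt deletion replicate 1 (0.057) or 3 (0.109).

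The m4 counts moved with single libraries. Scaled reads of m4 replicate 1 were the lowest of the m4 libraries for 55 of the 86 members. Without it 10 members were called higher against empty plasmid and 17 against wild type. Without m4 replicate 3 both counts were 0, and without any 1 of the empty libraries the count against empty plasmid was 1. Without wild type replicate 3 the count of m4 against wild type was also 0. It was 1 without empty replicate 2 or 3 or belt deletion replicate 1, and 2 without m4 replicate 2 or belt deletion replicate 2 or 3. What sets m4 replicate 1 apart was not tested. That library had the smallest table total, 132667 reads. The total of m4 replicate 3 was 139200 reads, and it was the lowest of the m4 libraries for 13 members and the highest for 46.

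With the belt deletion the only rise called was that of miR-6859-5p, at the 3′ end of a 239-base intron of WASH3P, a pseudogene of the WASH family. Its position, chr15:101973524-101973591 (+), is that of the copy with the most reads, since the name stands under several near-identical hairpins. It had 13.5, 13.2 and 15.3 scaled reads with empty plasmid and 14.3, 16.2 and 15.8 with wild type. With m4 it had 5.37, 37.9 and 30.7, and with the belt deletion 21.1, 46.4 and 29.9. The belt deletion values overlapped those of m4 and lay above those of wild type and of the empty plasmid (1.19 against empty plasmid, SE 0.45, edgeR adjusted p = 0.0227). Summed over its copies the change was 0.75 and the call ended, as it did without belt deletion replicate 2 (0.86, edgeR adjusted p = 0.201) or without any 1 of the 3 empty libraries. Without m4 replicate 1 or 3, which bear on this comparison through the shared estimate of spread, 2 members were called higher.

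Against wild type, m4 gave 2 further calls. miR-6761-5p in ALDH2, the mitochondrial aldehyde dehydrogenase gene, at chr12:111799834-111799905 (+), had 7.13, 10.8 and 4.51 scaled reads with wild type and 12.9, 22.2 and 29.4 with m4, without overlap (1.56, SE 0.55, edgeR adjusted p = 0.0178). With empty plasmid it had 15.0, 9.74 and 11.3. miR-6515-5p lies at the 3′ end of an 88-base intron of CALR, the gene of an endoplasmic reticulum chaperone, at chr19:12940484-12940540 (+). It had 20.2, 39.6 and 29.3 with wild type and 53.7, 59.1 and 58.9 with m4, without overlap (0.96, SE 0.39, edgeR adjusted p = 0.0469). Of the 12 fits with a library left out, 1 kept the call of miR-6515-5p, 2 that of miR-6505-5p, 4 that of miR-6842-3p and 9 that of miR-6761-5p.

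**Figure D5:**
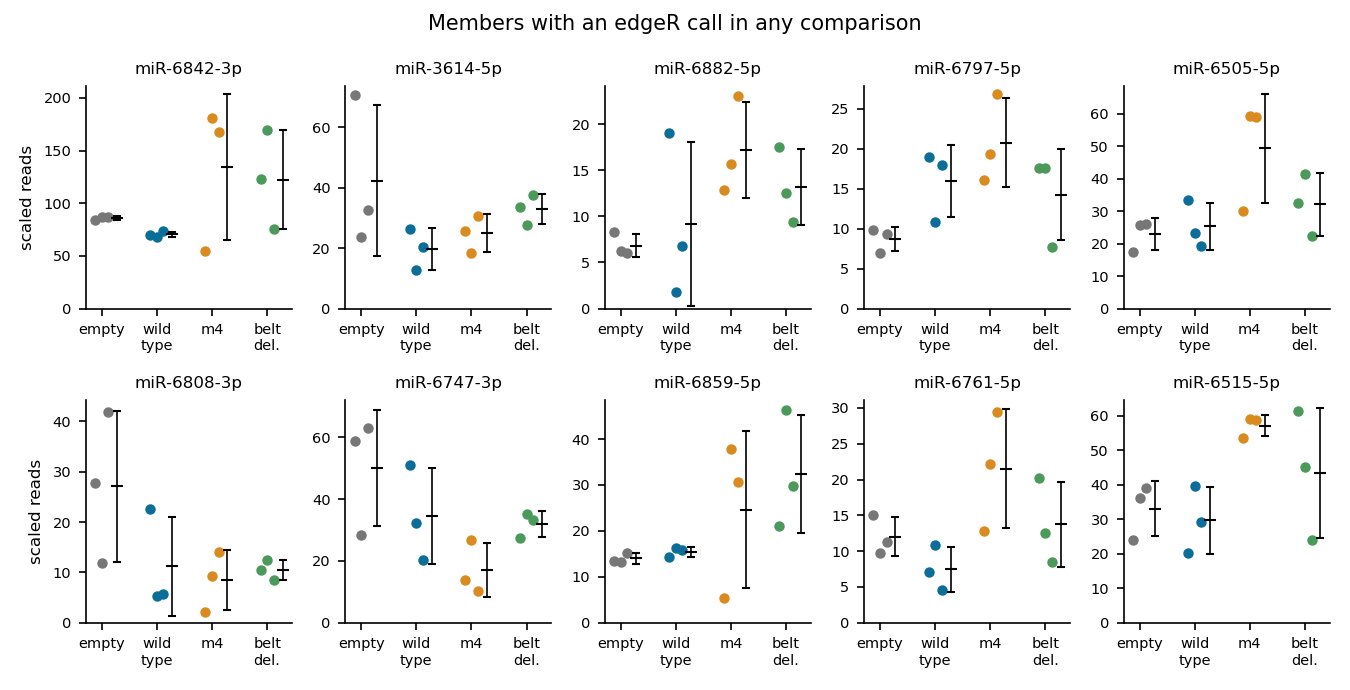
Scaled reads (linear axes from 0) of the 10 members with an edgeR call in any of the 5 comparisons; points are libraries and bars the group mean ± SD (n = 3). For miR-6747-3p the m4 libraries lie under all empty-plasmid libraries, and for miR-3614-5p empty replicate 1 (70.7) stands above the other 2.

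The counts change when the 18 names set aside are put back. Of these 18, 12 were in the fit, and 6 had been merged into another name with the same reads. With wild type 2 of the resulting 98 names were called higher: miR-3158-3p (1.80, SE 0.59, edgeR adjusted p = 0.0076) and miR-4521 (1.22, SE 0.35, edgeR adjusted p = 0.00241). With m4 the count of 3 became 7, through miR-3182, miR-3913-5p, miR-3917 and miR-4645-3p. With the belt deletion it became 2, through miR-3158-3p (3.83, SE 0.52). For m4 against wild type it became 9.

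The read limit itself left close neighbours on both sides. Just inside were miR-4522 with 128 reads, and miR-6777-3p and miR-6794-5p with 121 each. Just outside were miR-6892-5p with 119, miR-4688 with 118 and miR-6735-3p with 117.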

How the data were processed

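Small RNAs were sequenced from 12 libraries of transfected DROSHA-knockout HCT116 cells, 3 in each of 4 groups taken from the labels. Per the labels, RNA was isolated with TRIzol, a 15% gel loaded with 10 µg of it gave the fraction of 19 to 24 nt, and a NEBNext small RNA kit was used for the libraries. The authors deposited raw counts of reads for each hairpin and mature name, made with cutadapt and Bowtie2 on hg38 per the submitters' processing notes. Which program counted the reads, with which miRNA annotation, and how it handled strand and reads with several hits are not given in the sources used here.

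Blank cells (42.7% of the table) were read as 0. The line with the most reads was kept for each mature name. A fixed list of 9 name pairs was merged, leaving 1277 names, and each pair on it had reads equal within 5 reads or 5% in each library. Other pairs within that tolerance, if any, were not merged. Size factors were the median ratio over 5 miRNAs that mature without DROSHA and had at least 20 reads in every library. edgeR 4.0.16 (quasi-likelihood F test, R 4.3.3) was fitted once to the 12 libraries; filterByExpr kept 310 miRNAs, all 86 members among them, and Benjamini-Hochberg adjustment ran over the 310. A call means an adjusted p under 0.05, and SE is the log2 fold change over the square root of F. The fitting script was tested on simulated counts. Intervals are 95% intervals from this fit.

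Positions came from GENCODE v29 and RefSeq, sequences from RefSeq (GRCh38.p14), and folding energies from RNAfold 2.7.2. Members named with values are the 10 most abundant, those called (up to 6 in each direction against empty plasmid and 3 against wild type), hairpins with both arms, and 3 names on each side of the 120-read limit; miR-3143, miR-3620-5p, miR-6807-5p, the antisense pair and the members ending on an acceptor were added after their values were seen, as were the divisions by intron length and acceptor bases. The members and lists were chosen with earlier results of these data known. Other scalings, DESeq2 1.42.0, no filter on low counts, summed hairpin copies, a 240-read limit, the repeat number as a block and leaving out each library were run as alternatives; putting the names set aside back was chosen after seeing the data.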

Additional observations from a re-analysis of the deposited data

How the results depend on the processing

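The count of members called higher with wild type was 0 under each of the 10 alternatives of scaling, tool, filter, copies, read limit and block, 0 or 1 when 1 library was left out, and 2 with the names set aside put back. The other counts of called members changed with the processing, and the cause was not tested except where the construction gives it. TMM, total counts and DESeq2's own factors are taken over all miRNAs, of which 42.6% were called higher with wild type. Between them the median of all tested miRNAs for wild type against empty was -0.10 to -0.04, against 0.72 with the reference. With 121 to 4133 reads per member over the 12 libraries, depth limits every single-member call.

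Members called lower with wild type numbered 1 in the reported fit, 54 under TMM, 42 under total counts and 40 under DESeq2's size factors, and 0 with the summed reference, DESeq2 on the reference factors or no filter; with 1 library left out they numbered 0 to 4. Members called higher with m4 numbered 3 in the reported fit, 0 under TMM, DESeq2's size factors or no filter, 11 under total counts, 25 with the summed reference, 1 with the 240-read limit, 7 with the names set aside, and 0 to 10 with 1 library left out. Members called lower with m4 numbered 2, then 4 under TMM and 5 under DESeq2's size factors. They numbered 0 with the summed reference, 1 with the 240-read limit and 1 to 3 with 1 library left out. Of all tested miRNAs, 28.4% under TMM, 22.9% under total counts and 22.7% under DESeq2's size factors were lower with wild type. With m4, 46.5% under total counts and 54.2% with the summed reference were higher. Lower with m4 were 3.87% under TMM and 5.15% under DESeq2's size factors.

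With the belt deletion, 1 member was called higher; the number was 0 under TMM, total counts, either DESeq2 fit, no filter or summed copies, 2 with the summed reference, the reference without miR-320 or the names set aside, and 0 to 2 with 1 library left out. The 1 member called lower became 27 under TMM, 20 under total counts and 24 under DESeq2's size factors. Of all tested miRNAs, 15.2%, 10.6% and 13.3% were called lower there. It became 0 with the summed reference, DESeq2 on the reference factors or the 240-read limit, and 0 to 1 with 1 library left out.

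For m4 against wild type, the 4 members called higher became 32 under TMM, 68 under total counts and 23 under DESeq2's size factors. Of all tested miRNAs, 17.4%, 42.9% and 12.7% were called higher there. The 4 became 2 with DESeq2 on the reference factors, 9 with the names set aside and 0 to 17 with 1 library left out. They became 1 under each of the summed reference, the reference without miR-320, no filter and summed copies. The 0 called lower became 1 without miR-320 or with the names set aside, and 0 to 1 with 1 library left out (1 without wild type replicate 3 or m4 replicate 2). For the belt deletion against wild type, the 0 called higher became 2 under TMM, 1 under DESeq2's size factors or with the names set aside, and 0 to 1 with 1 library left out (1 without m4 replicate 1); the 0 called lower became 1 under TMM or with the names set aside, and 0 to 1 with 1 library left out (1 without wild type replicate 3 or m4 replicate 1).

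Some changes of single members with wild type turned sign and were called in the alternative fit. They were those of miR-3662 (-0.64 under TMM), miR-6511b-5p (-0.74 under TMM, -0.77 under total counts, -0.70 under DESeq2's size factors) and miR-6847-5p (-0.79 under TMM, -0.76 under DESeq2's size factors). Of 479 values of single members under the alternatives, 352 kept their side of the threshold, 99 lost a call and 22 gained one. These 6 turned sign with a call. A turn of sign without a call in either fit was not counted apart and falls among the 352.

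The labels number the repeats alike in each group. Deviations of same-numbered libraries from their group means correlated by -0.24 to 0.14 over 18 pairs, and 0 of 12 libraries correlated best with their own number, so the numbers were not taken as pairing. With the number as a replicate block, 1 member was called higher for m4 against wild type in place of 4, and the other 9 counts were as reported.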

Other observations

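Late names with under 120 reads were too thinly covered to be described one by one: 617 names had a median of 8 reads over the 12 libraries. In an edgeR fit without a filter on low counts, 7 of these 617 were called higher with m4, 7 with wild type and 0 with the belt deletion, each against empty plasmid. Of 410 names below 3000 with under 120 reads, whose median was 7 reads, 24 were called higher with m4, 80 with wild type and 57 with the belt deletion. The 3 comparisons share the empty-plasmid libraries, and no test of the difference between the lists was made.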
